A study of Arabidopsis thaliana with 2 samples.

Results

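The long arm of chromosome 2 of Arabidopsis thaliana was described through the single nucleotide polymorphisms (SNPs) that the authors listed on it. Its members were chosen by place alone, as every listed SNP of chromosome 2 beyond 6 Mb on the TAIR10 build, up to the last listed position, 19697569. There were 4115, which is 60.4% of the 6812 SNPs listed on chromosome 2 and 10.1% of the 40612 listed on the 5 chromosomes. The study sequenced genomic DNA of pooled seedlings with the phenotype of potent, a dominant mutation that impairs lateral root formation, and of pooled seedlings without it, with 1 pool each. Both pools came from the fifth cross of potent to the ecotype Landsberg erecta (Ler), so the seedlings without the phenotype share that history. The mutation arose in a line of the Columbia ecotype (Col-0) with the reporters DR5::Luciferase, pWOX5::ER-YFP and pSCR::ER-GFP, after 12 hours in 50 mM ethyl methanesulfonate (EMS), and was crossed 6 times to that line before the 5 crosses to Ler. The name of the list carries Homo, read here as homozygous, and MT, which the labels do not explain, and it names neither pool. The list gives a chromosome and a position for each SNP, with no allele, depth or quality. The depth behind each position is therefore unknown, and the pools could not be compared.

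Chromosome 2 of Arabidopsis is strongly asymmetric, with a short arm that begins in a nucleolus organizer and a long arm that holds most of its genes. Crosses between Col-0 and Ler are used for mapping because the ecotypes differ at many single bases, which mark the parent that each stretch of chromosome came from. ERECTA (ER), on the long arm, encodes a receptor kinase that controls organ shape, inflorescence form and stomatal patterning. Ler is named for its mutant erecta allele, which is known to carry a missense change in the kinase domain and gives the compact inflorescence of this ecotype.

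The long arm carried 300.4 listed SNPs per Mb (95% Poisson interval 291 to 309.7) over 13.7 Mb. The part of chromosome 2 up to 6 Mb carried 449.5 per Mb (433 to 467). All 5 chromosomes without the long arm together carried 346 per Mb (343 to 349.99). The end of chromosome 3 from 17 Mb, a distal segment set beside the arm for comparison, carried 343.5 per Mb (329 to 358). The interval of the long arm lay below the other 3. These intervals cover counting error only. Neighbouring SNPs are inherited together and none of the values has a replicate, so no test of the differences was made.

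The long arm stood apart from other chromosomes in where its SNPs fell on the gene models, which bears on every gene named here. Protein-coding genes of the arm held 2471 SNPs, or 298 per Mb (286 to 309.6), and sequence outside every annotated gene held 1377, or 294 per Mb (279 to 309.9). The density outside was 0.988 times that inside on the long arm, where the intervals overlapped almost wholly, and 1.52 times that inside over all chromosomes. On chromosome 3 from 17 Mb the density outside was 475 per Mb (445 to 506) and that inside was 285 per Mb (269.5 to 302), a factor of 1.66. On chromosome 2 up to 6 Mb the factor was 0.859. Pseudogenes of the long arm carried 379 per Mb (327 to 436), from 194 SNPs.

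The same contrast showed at the borders of genes. On the long arm, density was 324 per Mb (295 to 354) within the last 200 bp inside a gene, 326 per Mb (287 to 370.2) at 200 to 400 bp outside it and 285 per Mb (257 to 316) at 1000 to 1500 bp inside. On chromosomes 1, 3, 4 and 5 the values in that order were 339 (327 to 350.5), 491 (471 to 511) and 238 per Mb (227 to 248). Density on the arm was therefore nearly the same on both sides of a gene's border. At 1000 to 1500 bp outside a gene it was 274 per Mb (235 to 316), so the lower value at that distance was not particular to gene interiors. At 2000 to 3000 bp it was 255 per Mb (208 to 310) inside and 332 per Mb (283 to 387) outside.

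**Figure D1:**
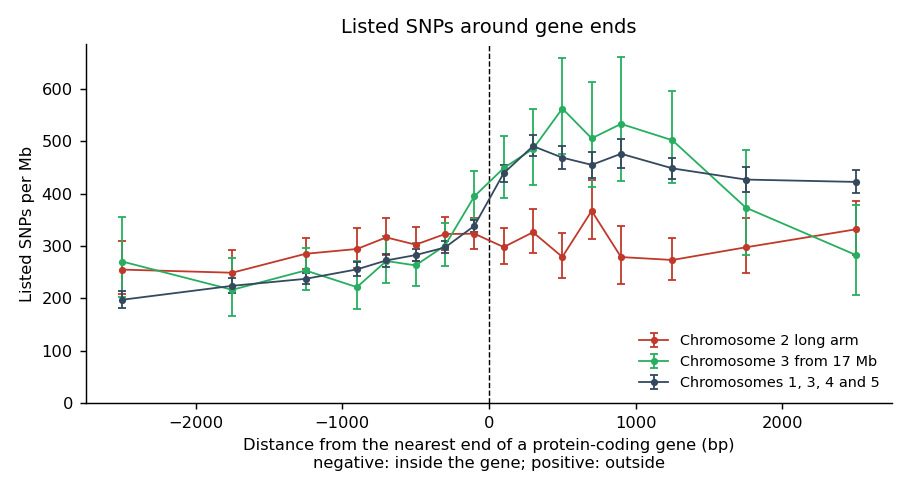
Listed SNPs per Mb (vertical axis, points with 95% Poisson intervals) by distance from the nearest end of a protein-coding gene (horizontal axis, bp, negative inside the gene), for the long arm, for chromosome 3 from 17 Mb and for chromosomes 1, 3, 4 and 5 together. The long arm is nearly flat across the gene border, with 324 per Mb in the last 200 bp inside and 298 in the first 200 bp outside, whereas chromosomes 1, 3, 4 and 5 have 339 and 439 and chromosome 3 from 17 Mb has 395 and 449, with overlapping intervals.

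Sliding the positions along the gene models gave the same picture. Positions were moved by up to 20 kb either way in steps of 250 bp, which gives 161 shifts with the unmoved one. On the long arm the share of SNPs in protein-coding genes was 60% with no shift, and 58.3% and 58.5% after shifts of 3000 bp to lower and to higher positions. It was lower than the unmoved share at 159 of the 161 shifts, and it ranged from 56.2%, at a shift of 16.25 kb, to 60.2%. Chromosome 2 up to 6 Mb was like the long arm, with an unmoved share of 25.3% and a lower share at 158 of the 161 shifts. On chromosomes 1, 3, 4 and 5 each, the unmoved share was the lowest of the 161. Among 1 Mb windows with at least 150 SNPs, the share with no shift was below both 3000 bp shifts in 1 of 13 windows of the long arm and in 49 of 53 windows of chromosomes 1, 3, 4 and 5. What sets chromosome 2 apart was not tested. Whether its positions are on the same coordinates as those of the other chromosomes cannot be read from a list without alleles, so each gene-level value below holds only if they are.

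Listed SNPs ran along the whole arm, with at least 1 in every full 100 kb window. In consecutive full windows of 100 kb, the 136 windows held between 1 and 65 SNPs, with a median of 30 and a middle range (quartiles) of 22 to 39. In all, 7 of the 136 windows (5.15%) held 5 SNPs or fewer. Of the 1188 full windows of all chromosomes, 29.2% did, the long arm included. The arm thus had sparse windows less often than the list as a whole by count, a difference that was described and not tested. Density was highest at the start of the arm, the side nearer the centromere. The first 2 Mb of the arm carried 443.5 per Mb (415 to 474), and the stretch from 8 to 19 Mb carried 291 per Mb (281 to 301), so the first was 1.53 times as dense. By full 1 Mb windows, the arm held 467 SNPs from 6 to 7 Mb and 420 from 7 to 8 Mb. From 8 Mb to 17 Mb the windows held between 261, from 8 to 9 Mb, and 377, from 9 to 10 Mb, with no steady slope. The window from 17 to 18 Mb held 161 and that from 18 to 19 Mb held 283. These stretches were chosen after the values were seen.

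**Figure D2:**
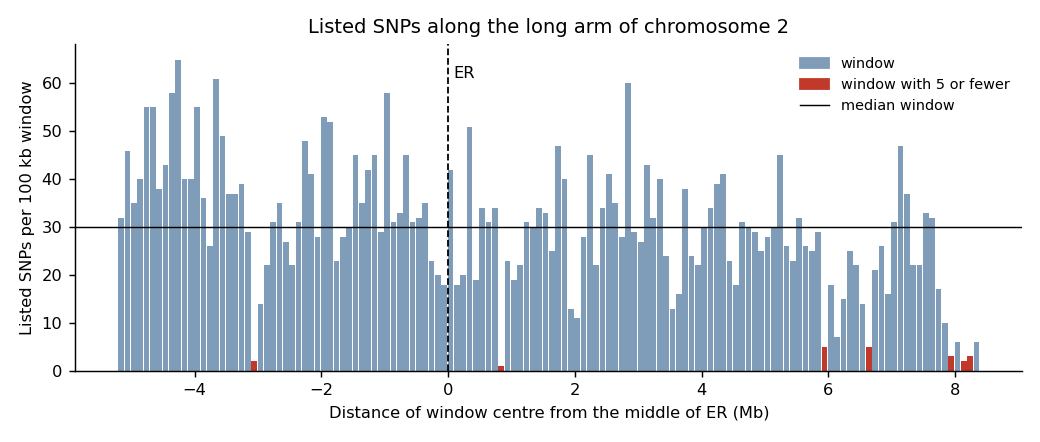
Listed SNPs in each full 100 kb window of the long arm (vertical axis) against the distance of the window's centre from the middle of ER (horizontal axis, Mb), with windows of 5 or fewer SNPs in red, the median window as a horizontal line and ER as a dashed line. The median window holds 30, the windows of the first 2 Mb are mostly above it, and 3 of the 7 sparse windows lie in the distal end.

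The densest full 100 kb window, from 6.9 to 7 Mb, held 65 SNPs over 21 protein-coding genes. The next held 61, from 7.5 to 7.6 Mb, and 60, from 14 to 14.1 Mb. The window at 14 Mb lies well away from the start of the arm, and it contains a row of receptor-like protein genes described below. Of that row, RLP26 and RLP27 held 4 SNPs each and RLP24, RLP25 and RLP28 held 0. A group of 12 SNPs in other genes, from 14077797 to 14081127, lay in the same window. The 7 windows with 5 SNPs or fewer were not gene-poor, since between 19 and 32 protein-coding genes started in each. The sparsest, from 12 to 12.1 Mb, held 1 SNP, and the window from 8.1 to 8.2 Mb held 2. The windows from 17.1 and from 17.8 Mb held 5 each, and the remaining 3, all beyond 19.1 Mb, held 2 or 3. Neighbouring windows were alike: the counts of adjacent windows had a Pearson correlation of 0.47 over 135 pairs, a description of windows that share linked sites. Windows with more of their length inside protein-coding genes tended to hold fewer SNPs (Pearson r = -0.31, Spearman rho = -0.22 over 136 windows, given as a description). The share of length in genes was also lower in the first 2 Mb, at 40.9%, than from 8 to 19 Mb, at 63.7%. The correlation was not computed without those 2 Mb, so a relation along the whole arm cannot be told apart from its dense, gene-poor start.

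SNPs of the long arm were clumped, but spaced more widely than on the rest of chromosome 2. Neighbours lay a median of 1475 bp apart (95% order-statistic interval 1377 to 1579) over 4114 distances, against a mean of 3329 bp. The lower quartile of the distances was 384 bp and the upper quartile was 4091 bp. The median was 775.5 bp (710 to 857) up to 6 Mb and, on chromosome 3 from 17 Mb, 1153 bp (1057 to 1254). The interval of the long arm did not overlap the other 2. These intervals treat distances between linked SNPs as independent, and a wider spacing goes with the lower density given above. The difference was not tested. Distances of 100 bp or less made up 14% of those on the long arm, 18.6% of those on chromosome 2 up to 6 Mb and 17.8% of those on chromosome 3 from 17 Mb. Directly adjacent positions were listed in 49 pairs on the long arm. The arm also held 45 SNPs with no other listed SNP within 10 kb, or 1.09% of its members.

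In 10 kb windows the variance of SNP counts on the long arm was 2.74 times their mean, where independent placement at an even density gives a ratio near 1. Of 1369 such windows, 250 (18.3%) held no SNP, against 4.96% for independent placement at the mean of 3 per window, and the fullest held 21. The same ratio was 4.27 on chromosome 2 up to 6 Mb and 3.22 on chromosome 3 from 17 Mb. The long arm had the lowest ratio of the 3, and it also had the lowest density. Keeping only SNPs at least 1 kb from the last one kept brought the ratio on the long arm to 1.04. By construction this filter also evens out the spacing.

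**Figure D3:**
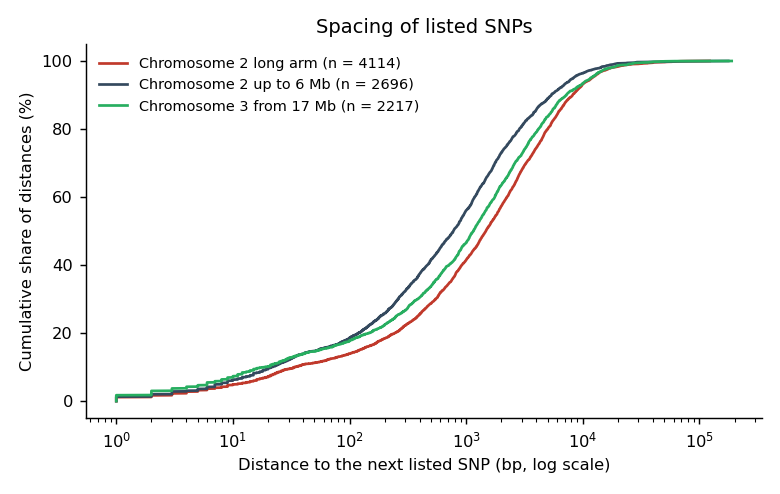
Cumulative share of distances between neighbouring listed SNPs (vertical axis, %) against distance (horizontal axis, bp on a log scale) for the long arm, for chromosome 2 up to 6 Mb and for chromosome 3 from 17 Mb. The curve of the long arm lies to the right of the other 2 through its middle, with medians of 1475, 775.5 and 1153 bp.

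Joining neighbours within 1 kb gave 2407 groups on the long arm. Of these, 1527 were single SNPs (37.1% of the members), 780 held 2 to 4, and 100 held 5 or more. The 100 larger groups carried 643 SNPs, or 15.6% of the members, in 1.31% of the length of the arm. The largest held 14 SNPs in 4245 bp, from position 9292970 to 9297214. It covered RNR1 (AT2G21790), the large subunit of ribonucleotide reductase, which makes the building blocks of DNA. The next 2 held 13 each. One, from 8921802 to 8924279, lay in MAN2 (AT2G20680) and AT2G20690, and the other, from 6433760 to 6437640, touched no protein-coding gene. A group of 12 from 7150502 to 7152623 lay in and beside ADC1 (AT2G16500), an arginine decarboxylase of polyamine synthesis, and had the highest density of the first 5, with 5.66 SNPs per kb. Another 12, from 14077797 to 14081127, spanned HSP60-2 (AT2G33210), a chaperonin gene, AT2G33220 and YUC7 (AT2G33230), a flavin monooxygenase of the YUCCA family of auxin synthesis. These groups were picked for their size, and the genes in them were named after their values were seen, so their counts are a description.

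The longest distance between neighbours was 122 kb, from 12005391 to 12127699, against 177 kb on chromosome 2 up to 6 Mb and 189 kb on chromosome 3 from 17 Mb. The arm, the longest of the 3 segments, thus had the shortest longest gap. There were 13 gaps over 50 kb and 68 over 20 kb, and the 68 took up 18.2% of the length of the arm. On chromosome 2 up to 6 Mb, 19 gaps over 20 kb took up 16.5%, and on chromosome 3 from 17 Mb, 29 took up 16.7%. Of the 13 gaps over 50 kb, the 4 within the distal end were 103, 61.6, 58.5 and 58.2 kb long. Between 17.1 and 17.4 Mb, 3 further gaps of 69.1, 62 and 50.4 kb stood close together, in a stretch of 30 SNPs, or 100 per Mb (67.5 to 143). With no depth in the list, a stretch without differences and a stretch in which sites were missed cannot be told apart.

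The longest gap held 21 protein-coding genes, none of them with a listed SNP by construction. It opened inside FRU (AT2G28160), a transcription factor of iron uptake in roots, and closed inside AT2G28360. Within it lay ARF10 (AT2G28350), an auxin response factor, 10.7 kb from its nearest listed SNP. SYD (AT2G28290), a chromatin remodelling ATPase and the longest gene of the gap with 17067 bp, lay there too, as did CSD2 (AT2G28190), a chloroplast copper/zinc superoxide dismutase, LOG1 (AT2G28305), a cytokinin-activating enzyme, CNGC15 (AT2G28260), a cyclic nucleotide-gated channel, ACA2 (AT2G28210), an alpha carbonic anhydrase, the cation/proton exchangers ATCHX7 and ATCHX8, and GATA13, NCRK and LCR5. The other 10 genes carry locus names only in the gene table. Protein-coding genes covered 58.7% of this gap and 60.6% of the arm. The third longest gap, 77.4 kb from 8097905 to 8175294, held 19 protein-coding genes and included PHYB (AT2G18790), the red light receptor phytochrome B. The nearest listed SNP lay 30.8 kb from PHYB.

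Listed SNPs fell to a low level at the end of the chromosome. In the distal end, beyond 19 Mb, 32 SNPs were listed at a density of 45.9 per Mb (31.4 to 64.8), and before it the arm carried 314 per Mb (305 to 324). The ratio was 0.146, which makes the rest of the arm 6.85 times as dense. With the last 1000 kb taken as the distal end, the ratio was 0.362. The fall was larger than counting error. It was not tested against the variation between other stretches of the arm, of which the lowest full 1 Mb window held 161. The 4 windows before 18.9 Mb carried 272.5 per Mb (224 to 329) together, the window from 18.9 to 19 Mb held 17 SNPs, and that from 19 to 19.1 Mb held 10. From 19.1 Mb on, 22 SNPs were left, or 36.8 per Mb (23.1 to 55.7). None of those 22 was within 100 bp of another, and the median distance between them was 18269 bp. The last 2 listed SNPs, at 19696553 and 19697569, stood alone after a gap of 103 kb.

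**Figure D4:**
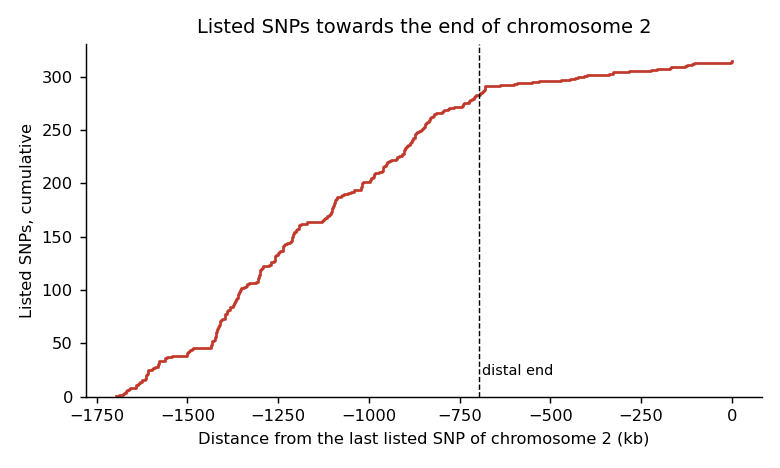
Cumulative number of listed SNPs from 18 Mb on (vertical axis) against distance from the last listed SNP of chromosome 2 (horizontal axis, kb), with the start of the distal end at 19 Mb as a dashed line. The line climbs by 283 SNPs before the dashed line and by 32 after it, and most of the flattening takes place close to the dashed line.

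The sparse distal end had about as many genes as the stretch next to it. It held 202 protein-coding genes, or 289.6 per Mb, which covered 68.9% of its length, and the stretch from 18 to 19 Mb held 305 per Mb, which covered 69.1%. The whole arm before 19 Mb, with its gene-poorer first 2 Mb at 190.5 per Mb, held 257 per Mb. Of the 202 genes, 19 (9.41%) held a listed SNP, and 17 of the 19 held exactly 1. Elsewhere on the arm the share was 38.9%. AT2G46320 held 3 and GBF3 (AT2G46270), a bZIP factor that binds G-box motifs, held 2. Genes with 1 included TRIP-1 (AT2G46280), CRF5 (AT2G46310), a cytokinin response factor, CNGC3 (AT2G46430), a cyclic nucleotide-gated channel, ARF11 (AT2G46530), an auxin response factor, PAP14 (AT2G46880), a purple acid phosphatase, AT2G46520, AT2G46850 and AT2G46910. The longest run of consecutive protein-coding genes with none on the whole arm lay here, 35 genes from Tic20-II (AT2G47840) to GPX4 (AT2G48150), and so did the next 3 runs, of 34, 26 and 25 genes. The morning clock genes CCA1 (AT2G46830) and PRR9 (AT2G46790), the Aux/IAA repressor gene IAA20 (AT2G46990) and the auxin transporter gene ABCB4 (AT2G47000) lay in the distal end with 0 each.

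With the limit on gene placement given above, 1322 of the 3549 protein-coding genes of the long arm (37.2%, exact binomial interval 35.7 to 38.9) held at least 1 listed SNP. Over all chromosomes 29.2% of 27444 genes did. No SNP was listed in 2227 genes, 1 in 731, 2 in 315, 3 or 4 in 196 and 5 or more in 80. Genes with 5 or more made up 2.25% of the arm, against a background of 3.25%. The arm's share was above the background for 1 SNP and below it for 5 or more, and neither difference was tested. The share on the arm rose with gene length, from 16.7% of genes up to 1000 bp to 56.3% of genes over 5000 bp. Over all chromosomes it rose likewise, from 14.4% to 45.3%. SNPs per Mb of gene on the arm ran the other way, from 365 in the shortest class to 214 in the longest.

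The gene with the most listed SNPs was TIL2 (AT2G27120), a catalytic subunit of DNA polymerase epsilon, with 20 over 13184 bp, or 1.52 per kb. RNR1 held 13 and ADC1 held 11, or 2.83 and 3.77 per kb. These 3 were the only genes of the arm with 10 or more. AT2G37370 held 9. With 8 each followed SQN (AT2G15790), a cyclophilin 40 that acts in shoot maturation, AT2G17670, AT2G20690, EME1A (AT2G21800), a meiotic endonuclease that is the neighbour of RNR1, GLR2.2 (AT2G24720), a glutamate receptor-like channel, and emb1997 (AT2G28880), an aminodeoxychorismate synthase of folate synthesis. ATCHX13 (AT2G30240), a cation/proton exchanger, and AT2G32970 were tied at 8 and fell outside the first 10 by locus order. AT2G20690 had the highest density of these, with 4.79 per kb.

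ER itself held 1 listed SNP, at position 11212299. The gene is 6583 bp long in the gene table, so this is 0.152 per kb. The SNP lay 4.22 kb from the lower end of the gene and 2.36 kb from the higher end. No allele is listed and no exon structure was used, so whether this position is the known erecta missense change was not tested. A second SNP, at 11207997, lay 0.083 kb outside the lower end of ER. On the other side nothing was listed for 13.8 kb beyond the gene. The distance from the SNP in ER to the next one, at 11228511, was 16.2 kb, and 105 of the 4114 distances on the arm (2.55%) were as long or longer.

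Within 100 kb of ER the list held 63 SNPs, or 305 per Mb (234 to 390.2). The same measure around each protein-coding gene of the arm had a median of 304 per Mb and quartiles of 233 and 367, so ER stood in the middle at this width. The rank of ER changed with the width. The share of genes with a lower value was 50.3% at 100 kb and 75.1% at 50 kb. It was 20.5% at 10 kb, 23.2% at 25 kb, 22% at 250 kb and 37.6% at 500 kb. The order of the 2 flanks of ER also changed with their width. In the 100 kb below the gene there were 20 SNPs, a density of 200 per Mb (122 to 309), and in the 100 kb above it 42, a density of 420 per Mb (303 to 568), with intervals that overlapped slightly. Over 25 kb the lower flank was the denser, with 240 per Mb (88.1 to 522) below and 120 per Mb (24.7 to 351) above, and over 500 kb the values were 260 (217 to 309) and 302 per Mb (256 to 354). Within 100 kb, the lower side held between 1 and 3 SNPs in each 10 kb. The higher side held 0 in its first 10 kb, 2 in the next, then 6, 6, 12 and 6. Those 12 lay from 40 to 50 kb beyond ER. Within 25 kb of the gene density was 177 per Mb (84.7 to 325), within 50 kb it was 375 per Mb (268 to 511), within 250 kb it was 233 per Mb (193 to 279), and within 500 kb it was 280.2 per Mb (248 to 315). Density thus lay below that of the whole arm within 25, 250 and 500 kb, close to it within 100 kb and above it within 50 kb. The interval within 250 kb lay below the density of the whole arm, and those at the other widths included it. The interval within 25 kb, from 10 SNPs, is wide and includes the density of the whole arm.

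**Figure D5:**
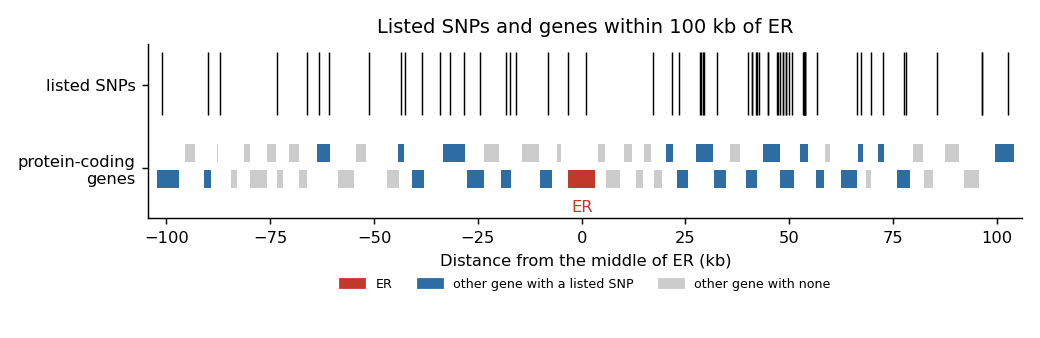
Listed SNPs (vertical lines) and protein-coding genes (boxes, in 2 alternating rows) by distance from the middle of ER (horizontal axis, kb), with ER in red, other genes with a listed SNP in blue and genes with none in grey. SNPs are thinly spread on the lower side, missing for 16.2 kb after the SNP in ER and crowded around 50 kb on the higher side.

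Among the 5 genes on each side of ER, 2 held a listed SNP, but over wider flanks the count was higher. Of the genes within 25 kb, ER included, 8 of 17 held one, within 50 kb 15 of 27 and within 100 kb 24 of 52, beside 37.2% of all genes of the arm. On the lower side, in order from ER, the MADS-box gene AGL33 (AT2G26320) held 0, FAP2 (AT2G26310), a fatty-acid-binding protein gene, held 1, the G protein alpha subunit gene GPA1 (AT2G26300) held 0, the root-specific kinase gene ARSK1 (AT2G26290) held 2 and CID7 (AT2G26280) held 0. On the higher side the 5 nearest genes held 0 each: AT2G26340, PEX10 (AT2G26350), a peroxisome biogenesis factor, AT2G26360, AT2G26370 and AT2G26380. The crowded stretch beyond them included PIP5K3 (AT2G26420), a phosphatidylinositol phosphate kinase gene, with 4, SMU2 (AT2G26460) with 4, AT2G26470 with 7 and UGT76D1 (AT2G26480), a glycosyltransferase gene, with 6. These 4 were named after their values were seen.

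Of 14 genes of ER signalling, 5 lie on the long arm and 2 of those held a SNP, near the 37.2% of all genes of the arm. Besides ER, CHAL (AT2G30370), also called EPFL6, a secreted peptide that ER-family receptors perceive, held 1. EPF1 (AT2G20875), a related stomatal peptide, MPK6 (AT2G43790), a MAP kinase downstream of the receptors, and GPA1 held 0, although SNPs lay 1.55, 1.21 and 1.33 kb away from them. Among the 9 members on other chromosomes, only the MAP kinase kinase kinase gene YDA held a SNP, beside 29.2% of genes over all chromosomes. It held 1. The receptor genes ERL1, ERL2 and TMM, the peptide genes EPF2 and EPFL9, the kinase genes MKK4 and MPK3 and the G protein beta subunit gene AGB1 held 0. ERL1, EPF2 and MKK4 had 0 listed SNPs within 10 kb, whereas ERL2, TMM, EPFL9, MPK3 and AGB1 had between 2 and 16.

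Of 9 auxin genes on the arm, 3 held a listed SNP, near the arm's share of 37.2%. The auxin exporter gene ABCB1 (AT2G36910) held 7, and the influx carrier gene LAX2 (AT2G21050) and ARF11 held 1 each. The Aux/IAA genes IAA8, IAA13 and IAA20, ARF10, ABCB4 and the kinase gene PID held 0. PID and IAA13 had 15 and 11 SNPs within 10 kb, whereas ARF10 and ABCB4 had 0 within 10 kb. Among 5 genes of lateral roots and meristems, 1 held a SNP, beside 37.2% of all genes of the arm. It was LBD16 (AT2G42430), a regulator of lateral root initiation, with 2. LBD17, LBD18, the stem cell regulator WUS and the peptide gene CLV3 held 0. Of 9 genes of flowering time, light and the clock, 5 held a SNP, beside 37.2% of all genes of the arm. The floral repressor gene SVP (AT2G22540) held 2, and ELF4, FVE, FPA and SOC1 held 1 each, while PHYB, ELF3, CCA1 and PRR9 held 0. Their median was 1, beside a median of 0 over all 3549 genes of the arm. The ER, auxin and lateral root lists had a median of 0 as well.

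Receptor-like proteins, membrane proteins with leucine-rich repeats and no kinase domain, some of which act in immunity, held SNPs in 7 of the 11 genes found of 12 listed, beside 37.2% of all genes of the arm. Their median was 2 SNPs per gene and 0.537 per kb, beside medians of 0 over all genes of the arm. RLP19 (AT2G15080) held 5, RLP22 (AT2G32660), RLP26 (AT2G33050) and RLP27 (AT2G33060) held 4 each, RLP20 and RLP21 held 2 each and RLP23 held 1. RLP24, RLP25, RLP28 and RLP29 held 0. RLP24 to RLP28 lie close together near 14 Mb, in the third densest 100 kb window of the arm, and had between 9 and 22 listed SNPs within 10 kb. That window also holds the group of 12 SNPs in HSP60-2, AT2G33220 and YUC7. Genes of this family can be similar in sequence, so that reads may be placed in the wrong copy, and their counts are uncertain. The authors' handling of such reads is not given in the sources used here.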

How the data were processed

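Per the labels' protocols, a Hiseq2000 instrument sequenced genomic DNA of 2 seedling pools. The authors deposited 1 table of SNP positions in bp. Per the series' design text they used SNPtrack, and the build is TAIR10 per the submitters' processing notes. For the aligner, the thresholds and what counted as homozygous, the answer is not given in the sources used here. Cells that held only a blank (5) were left out. Positions increased within each chromosome. From them, SNPs per Mb with exact Poisson 95% intervals, counts in windows from the start of the arm (the last partial window left out) and distances between neighbours were computed with Python 3.11.15, numpy 2.4.6, pandas 2.3.3 and scipy 1.17.1. Window, gap and gene-count functions were tested on simulated positions.

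Genes came from the RefSeq table of TAIR10.1. It gives gene spans without strand, exons, coding sequence or product, so the planned ratio for coding sequence was replaced by protein-coding genes against sequence outside annotated genes, families were not counted by product, and no gene coordinates are printed. Each base belonged to 1 class, protein-coding genes first. Of 49 listed genes, 48 matched by locus. Named genes were ER with 5 neighbours on each side, the 10 genes with the most SNPs, list members, genes of the longest gap and up to 10 genes of the distal end. The members, lists and comparisons were chosen with earlier results of these data known. No sequence is shown.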

Additional observations from a re-analysis of the deposited data

How the results depend on the processing

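No paired analysis was possible because the 2 pools have no replicates and the list is tied to neither of them. Keeping SNPs at least 1 kb apart gave a density of 190 per Mb for the arm and 194 within 100 kb of ER, a distal ratio of 0.21, a median distance of 3230 bp, a variance ratio of 1.04 and a highest window of 34. The density of the arm was 287 per Mb when it started at 7 Mb, 276 when it started at 8 Mb and 314 when it ended at 19 Mb. With the last 1000 kb as the distal end, the ratio was 0.362. The variance ratio was 1.46 in 1 kb windows and 5.98 in 100 kb windows. Density around ER was 177 per Mb within 25 kb and 233 within 250 kb. The share of genes with a SNP was 58.5% with 1 kb added either side and 38.9% without the distal end. The other 14 of 30 alternatives moved by less than counting error, or by less than 1.5 times for a ratio of variances, a gap or a window. They included both for genes against sequence outside genes, 0.977 when thinned and 1.03 from 8 Mb on. Those 2, a distal end from 18.9 Mb (0.195) and the median distance without the distal end (1458.5 bp) were chosen after seeing the data. Alternatives for coding sequence were not run, because the gene table holds none. Without read depth, missed sites could not be told from absent ones.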

Other observations

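Of 394 distances between 3 and 50 bp that separated neighbouring SNPs of the long arm, 164 (41.6%) were multiples of 3, and of 5230 such distances on chromosomes 1, 3, 4 and 5, 2040 (39%) were. Of the 48 whole numbers from 3 to 50, 16 (33.3%) are multiples of 3, a share that applies only to distances spread evenly over that range. Because the range starts at 3, a higher share follows where shorter distances are more frequent, and this was not allowed for. The long arm was close to the other chromosomes in its share of multiples of 3. Distances between linked SNPs are not independent, and no test was made. Where both neighbours lay in protein-coding genes of the long arm, the median distance was 957 bp over 1876 distances, and where both lay outside annotated genes it was 784 bp over 773. Asking for neighbours of the same class favours short distances, and both medians lay below the 1475 bp of all distances. The difference between the 2 medians was not tested. Outside the distal end, the longest run of consecutive protein-coding genes without a listed SNP on the long arm was 24 genes, from BOP2 (AT2G41370) to AT2G41515, in the sparse stretch from 17.1 to 17.4 Mb. A run of 21 genes from LSH10 (AT2G42610) to PP5.2 (AT2G42810) lay near 17.8 Mb and includes RLP29. Both runs were named after their values were seen.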
